A study of Mus musculus with 6 samples.

Results

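The genes described here are 10 transcripts of the AP-1 transcription factor family and of the wider immediate early class: Fos, Fosb, Fosl1, Fosl2, Jun, Junb, Jund, Egr1, Ier2 and Ier3. They were taken by gene name from a table of 54532 mouse genes, and all 10 were found once. The table holds FPKM values (reads scaled for gene length and library size) from RNA sequencing of 6 libraries labelled MIN6, an insulinoma-derived mouse pancreatic beta cell line. The libraries fall into 3 labelled PP2Ac knockdown (titles sh2) and 3 labelled control (titles shc). PP2Ac names the catalytic part of PP2A, a phosphatase that acts on serine and threonine. The labels give no treatment, time, clone or hairpin sequence for either group, and they do not say whether the replicates were separate cultures, so each p-value below sets a difference only against the spread between these libraries.

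AP-1 is a family of paired transcription factors in which a JUN protein joins another JUN protein, a FOS protein or a related partner through a leucine zipper and binds DNA at AP-1 sites. Many of these genes, with Egr1, Ier2 and Ier3, are immediate early genes, which growth factors and stress switch on within minutes through the ERK, JNK and p38 kinase cascades and without new protein synthesis. Their mRNAs are mostly short-lived. PP2A is known to remove activating phosphates from kinases of these cascades, and in human cells the IER3 protein has been reported to bind B56-type regulatory subunits of PP2A.

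The libraries held 14614737 to 16030939 recovered reads each. Ppp2ca was taken as the targeted transcript, though the labels name only PP2Ac and no gene. It had 10.1, 11.4 and 10.9 FPKM in the knockdown libraries, against 42.5, 34.6 and 35.6 FPKM in the control libraries, which were all higher. The beta cell label went against its markers. Ins1 and Ins2, the insulin genes, were listed at 0 in all 6 libraries, and 16 of 18 beta cell markers had a mean FPKM below 1, with Mafa at 4.86 ± 0.854 FPKM in knockdown and 1.78 ± 0.435 FPKM in control, and Pdx1 at 3.96 ± 0.309 and 1.68 ± 0.499 FPKM (SD, n = 3 each). The groups also differed in markers of other cells: the summed FPKM of 11 stromal and mesenchymal markers was 1150.9 to 1314.0 in knockdown and 504.0 to 576.8 in control, with Lum at 0 throughout. Vim made up most of it (952.2 FPKM in knockdown, 426.3 FPKM in control), 6 of the 11 were tested and all 6 were higher. The summed FPKM of 8 duct markers was 352.6 to 391.8 in knockdown and 681.3 to 848.9 in control, with Epcam among those at 0. Spp1 made up nearly all of it (370.6 FPKM in knockdown, 760.4 FPKM in control), 6 of the 8 had a mean below 1, and the 2 tested were lower. For 9 immune and endothelial markers it was 5.10 to 5.58 in knockdown and 15.5 to 22.0 in control, with Adgre1, Cd3e and Cdh5 among those at 0; 7 of the 9 had a mean below 1, and of the 2 tested 1 was higher and 1 lower. The part of these differences in the results below was not tested.

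Of the 10 genes, Ier3, Junb and Jun passed the test between the groups, and their promoters are shown to give the regulatory sequence of the members that changed. RefSeq promoters (build GRCm38.p6) were matched for 7 of the 10. Each line gives the 250 bases before the annotated transcription start, 5′ to 3′ on the gene's own strand. RefSeq starts differ from the gene ends in the deposited table for Ier3, whose window runs a short way into the gene as the table places it, and for Junb, whose window begins a short way beyond it. Capitals mark matches, on either strand, to the letters searched: TGACGTCA (the cyclic AMP response element), its half-site TGACG, which the full element contains, TGACATCA (a variant known from the Jun promoter, to which JUN and ATF2 bind), TGANTCA (the AP-1 site), GCGTGGGCG (the EGR1 site), GGGCGG (the GC box) and TATAAA (the TATA box).
Ier3, chr17:35821463-35821712, plus strand: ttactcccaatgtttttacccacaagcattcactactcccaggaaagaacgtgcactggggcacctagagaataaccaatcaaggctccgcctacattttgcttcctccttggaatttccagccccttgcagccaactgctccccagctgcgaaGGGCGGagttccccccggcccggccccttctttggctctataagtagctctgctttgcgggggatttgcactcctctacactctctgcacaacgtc
Junb, chr8:84978749-84978998, minus strand: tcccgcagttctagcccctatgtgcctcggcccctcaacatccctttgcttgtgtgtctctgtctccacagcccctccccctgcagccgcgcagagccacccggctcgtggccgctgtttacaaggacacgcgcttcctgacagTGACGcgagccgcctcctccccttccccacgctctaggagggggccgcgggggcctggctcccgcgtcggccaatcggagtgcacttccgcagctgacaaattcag
Jun, chr4:95052223-95052472, minus strand: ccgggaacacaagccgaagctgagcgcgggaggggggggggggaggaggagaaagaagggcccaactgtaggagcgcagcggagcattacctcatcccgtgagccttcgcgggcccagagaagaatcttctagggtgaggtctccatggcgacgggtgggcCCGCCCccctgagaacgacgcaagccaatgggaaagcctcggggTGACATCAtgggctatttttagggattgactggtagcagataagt

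The Jun window held TGACATCA beginning 45 bases before the start, which 2.93% of 32851 promoter windows of the same length held. It also held a GC box on the opposite strand. The Junb window held the half-site TGACG 106 bases before the start, a match found in 17.8% of windows and also in the Fosb and Fos windows, so in 3 of the 7. The Ier3 window held a GC box (32.7% of windows), as did 5 of the 7. TATAAA, in 12.4% of windows, was found among the 7 only in the Fos window. The AP-1 site TGANTCA (6.75% of windows), the full TGACGTCA (1.55%) and the EGR1 site (0.536%) were in none of the 7 windows. These are matches of letters and say nothing of binding. Only the letters listed were searched, so other variants of these sites, in the Jun window too, stay unmarked.

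Levels of the members spanned a wide range, and their order by group mean was the same in both groups. In knockdown the order of mean FPKM was Ier3 (86.4), Junb (66.4), Fosl1 (66.2), Jund (65.2), Ier2 (51.1), Egr1 (32.8), Jun (21.3), Fosl2 (10.3), Fosb (1.62) and Fos (0.938). In control it was Ier3 (152.2), Junb (83.6), Fosl1 (64.9), Jund (60.2), Ier2 (58.0), Egr1 (31.4), Jun (18.2), Fosl2 (10.4), Fosb (1.97) and Fos (0.753). In knockdown the library ranges of Junb and Fosl1, and of Fosl1 and Jund, overlapped, so these neighbours were not separated. In control this held for Fosl1 and Jund and for Jund and Ier2. Fos was the lowest of the 10 in every library, while Fosl1, which encodes FRA1, was the highest of the FOS genes in every library. FPKM divides by gene length: Fosl2, with a gene model of 9680 bases, had 1442 to 1687 reads per library, close to the 1589 to 1862 reads of Fosl1, whose model has 1707 bases.

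**Figure D1:**
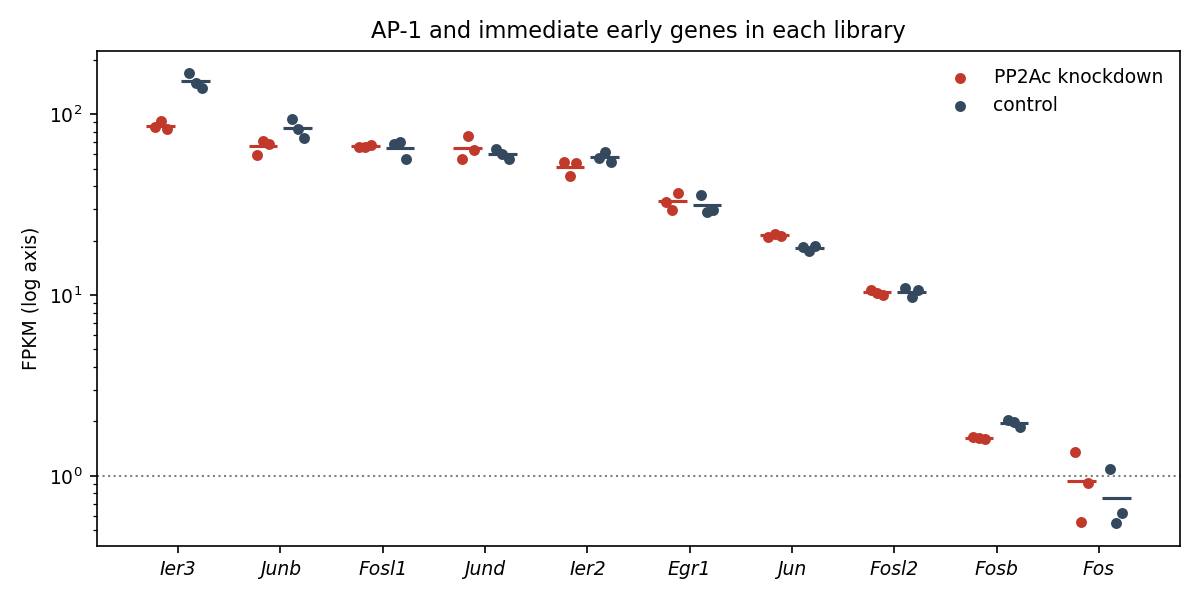
FPKM of each member (log axis) in the 3 PP2Ac knockdown libraries (red, left) and the 3 control libraries (dark, right); points are libraries, bars are group means, and the dotted line is the mean FPKM of 1 below which a gene was not tested. Ier3 is separated between the groups by the widest gap, and Fos lies around the line.

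Jun was higher in knockdown, and Ier3 and Junb were lower. Genes entered the test where their FPKM averaged 1 or more across libraries, which 9 members did. Of these 1 was higher, 2 were lower, and the other 6 were not called at a limma adjusted p of 0.05. Over all 11652 genes tested, 62.4% passed, 33.3% higher and 29.1% lower. The median log2 change was -0.01 for the 9 members and 0.03 for all tested genes, and the median absolute log2 change was 0.18 for the 9 members and 0.37 for all tested genes. No member passed with an absolute log2 change of at least 1, against 9.86% of all tested genes. In 5 of the 9 the knockdown and control libraries did not overlap, against 68.1% of all tested genes. In bulk RNA, fewer cells that express a gene and less RNA per cell cannot be told apart.

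**Figure D2:**
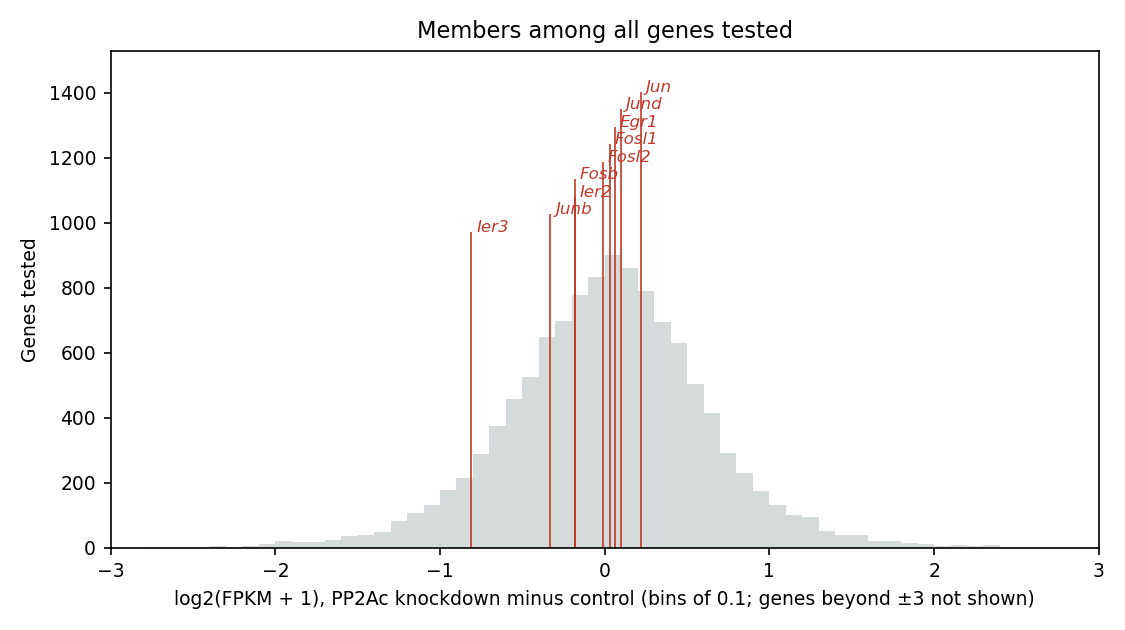
Distribution of log2 changes (PP2Ac knockdown minus control, log2(FPKM + 1), bins of 0.1) over all genes tested, in grey, with the 9 tested members as red lines whose height has no meaning. Ier3 at -0.81 stands off the centre, and the other 8 lie between -0.33 and 0.22.

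Ier3 (ENSMUSG00000003541, chromosome 17, 35821684 to 35822923, plus strand, GRCm38 as in the table; 2 exon blocks) encodes a small stress-responsive protein that modulates ERK signalling and cell survival, and it was the member that changed most. It had 85.0, 91.3 and 82.9 FPKM in the knockdown libraries, against 168.1, 148.8 and 139.9 FPKM in the control libraries. Every knockdown library lay well below every control library. The means were 86.4 ± 4.41 and 152.2 ± 14.4 FPKM (SD, n = 3 each), so the knockdown level was 56.8% of control. The log2 change was -0.81 (SE 0.0856, 95% interval -1.0 to -0.61, limma adjusted p = 0.000104), larger in size than that of 83.5% of tested genes. Under 19 other settings the log2 change ran from -0.88 to -0.73, with limma adjusted p from 1.84e-07 to 0.00123. Of the 19, median-of-ratios scaling divided every library by the same factor, so it all but repeated the main fit for every gene. The exact two-sided permutation p over the libraries was 0.1, the smallest that 3 against 3 allow. Recovered reads were 1486, 1582 and 1400 in knockdown and 3041, 2610 and 2597 in control.

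The genes whose pattern over the 6 libraries was most like that of Ier3, by Euclidean distance of log2(FPKM + 1) centred on each gene's mean among 10005 other tested protein-coding genes, were Txndc12 (distance 0.0327), Atg7 (0.0594) and Tecpr1 (0.0937). Txndc12, which encodes a thioredoxin-domain protein of the endoplasmic reticulum, averaged 13.2 ± 0.656 FPKM in knockdown and 23.7 ± 2.42 FPKM in control. Atg7, an autophagy enzyme gene, averaged 9.22 ± 0.585 and 17.0 ± 1.32 FPKM, and Tecpr1 averaged 5.05 ± 0.312 and 9.73 ± 1.03 FPKM (SD, n = 3 each).

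Ier2 (ENSMUSG00000053560, chromosome 8, 84661331 to 84662852, minus strand), a single-exon gene for a nuclear immediate early protein, had 54.1, 45.7 and 53.7 FPKM in knockdown and 57.5, 62.0 and 54.6 FPKM in control. The groups did not overlap, but the highest knockdown library and the lowest control library lay close together. The log2 difference was -0.18 (SE 0.0877, 95% interval -0.38 to 0.02), which was not called (limma adjusted p = 0.104). It passed in 1 of 19 other settings, when mitochondrial, rRNA and Gm23935 reads were removed and the libraries set to a common sum (log2 change -0.26, limma adjusted p = 0.0434).

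Egr1 (ENSMUSG00000038418, chromosome 18, 34859823 to 34864984, plus strand) encodes a zinc finger factor induced through ERK and serum response factor. It had 32.7, 29.4 and 36.5 FPKM in knockdown and 35.7, 28.8 and 29.6 FPKM in control. The ranges overlapped almost wholly. The log2 difference was 0.06 (SE 0.107, 95% interval -0.18 to 0.31, limma adjusted p = 0.621), so the interval leaves room for a ratio of knockdown to control from 0.882 to 1.24.

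Among the JUN genes, which can pair with each other or with FOS proteins, 1 rose, 1 fell and 1 did not pass. Junb (ENSMUSG00000052837, chromosome 8, 84974484 to 84978718, minus strand), which encodes a JUN protein that often counters JUN, had 59.3, 71.3 and 68.4 FPKM in knockdown and 94.4, 82.9 and 73.5 FPKM in control. The highest knockdown library lay just below the lowest control library. The means were 66.4 ± 6.27 and 83.6 ± 10.5 FPKM (SD, n = 3 each), with a log2 change of -0.33 (SE 0.108, 95% interval -0.57 to -0.08, limma adjusted p = 0.0288). This call was weak: limma adjusted p was 0.1 without knockdown library 1, 0.0504 without knockdown library 3, 0.0893 without control library 1, 0.0631 without control library 2 and 0.0803 with no filter on low values. It passed in 13 of 19 other settings, where every log2 change was negative. The 3′ part of the Junb gene in the table overlaps Prdx2, a peroxiredoxin gene on the opposite strand, by 351 bases, 173 of them exonic in both. Prdx2 averaged 99.5 FPKM in knockdown and 42.1 FPKM in control, and without a stated strand setting reads of the 2 genes in that stretch cannot be told apart.

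Jun (ENSMUSG00000052684, chromosome 4, 95049034 to 95052222, minus strand), a single-exon gene for the founding JUN protein, had 21.0, 21.8 and 21.2 FPKM in knockdown and 18.3, 17.6 and 18.6 FPKM in control. Every knockdown library lay above every control library, and replicates lay close together. The means were 21.3 ± 0.433 and 18.2 ± 0.495 FPKM (SD, n = 3 each), a knockdown level of 117.0% of control. The log2 change was 0.22 (SE 0.0615, 95% interval 0.08 to 0.36, limma adjusted p = 0.0144). The call was lost without control library 2 (limma adjusted p = 0.0526) and with mitochondrial, rRNA and Gm23935 reads removed (log2 change 0.15, limma adjusted p = 0.0845). It passed in the other 17 of 19 settings. The antisense gene Junos overlaps Jun by 689 bases, 232 of them exonic in both, and had at most 49 reads in any library.

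Jund (ENSMUSG00000071076, chromosome 8, 70698949 to 70700616, plus strand), a single-exon gene whose product is less tied to induction than the other JUN proteins, had 56.5, 76.0 and 63.2 FPKM in knockdown and 63.8, 60.1 and 56.8 FPKM in control. Knockdown library 2 was the highest of the 6 and knockdown library 1 the lowest. The log2 difference was 0.10 (SE 0.109, 95% interval -0.15 to 0.35, limma adjusted p = 0.429). In knockdown, Junb and Jund were both lowest in library 1 and highest in library 2. The antisense gene Gm11175 overlaps Jund by 919 bases and was listed at 0 in all libraries.

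**Figure D3:**
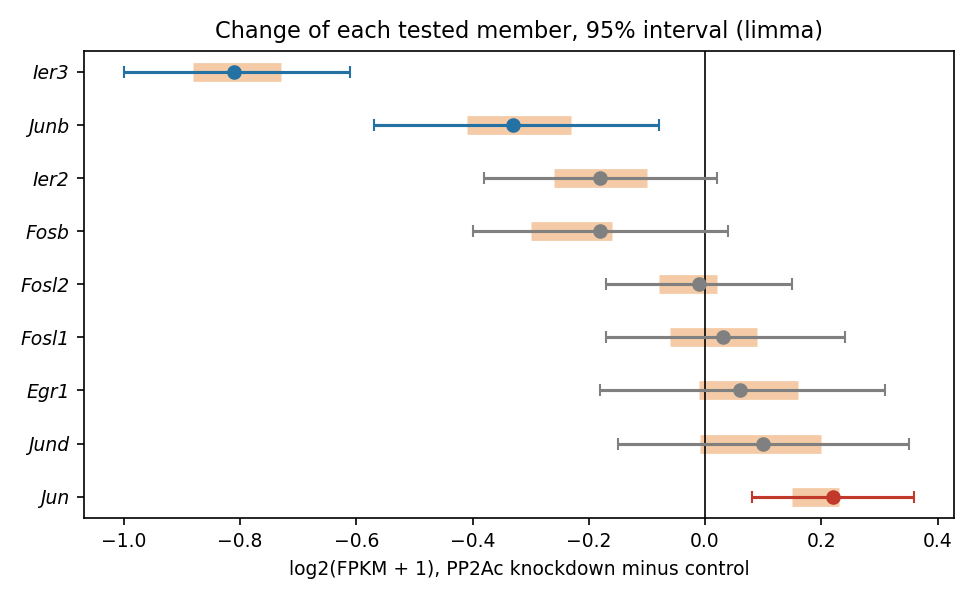
Log2 change of each tested member (PP2Ac knockdown minus control, log2(FPKM + 1)) with its 95% limma interval; blue passed as lower, red as higher, grey did not pass, and the pale bar is the range over the 19 other settings (18 for Fosb). The intervals of Ier3, Junb and Jun exclude 0, and the Ier3 interval, -1.0 to -0.61, does not meet that of any other member.

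Of the FOS genes, the 3 tested with limma did not pass, nor did any at an unadjusted p under 0.05 or with limma voom on recovered reads. FOS proteins act mostly in pairs with JUN proteins and not with each other. Fosl1 (ENSMUSG00000024912, chromosome 19, 5447703 to 5455945, plus strand), often raised by sustained ERK signalling, had 65.7, 65.7 and 67.3 FPKM in knockdown and 68.2, 69.9 and 56.7 FPKM in control. The knockdown libraries lay close together inside the control range. The log2 difference was 0.03 (SE 0.0882, 95% interval -0.17 to 0.24, limma adjusted p = 0.761), a ratio between 0.889 and 1.18. Fosl2 (ENSMUSG00000029135, chromosome 5, 32135801 to 32157842, plus strand), which encodes FRA2, had 10.7, 10.3 and 9.97 FPKM in knockdown and 10.9, 9.77 and 10.6 FPKM in control. Its knockdown libraries also lay inside the control range, with a log2 difference of -0.01 (SE 0.0700, 95% interval -0.17 to 0.15, limma adjusted p = 0.890), a ratio between 0.887 and 1.11.

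Fosb (ENSMUSG00000003545, chromosome 7, 19302696 to 19310051, minus strand), best known for its stable splice form in neurons, had 1.65, 1.62 and 1.59 FPKM in knockdown and 2.05, 1.98 and 1.86 FPKM in control. The groups did not overlap, and the knockdown level was 82.3% of control. The log2 difference was -0.18 (SE 0.0965, 95% interval -0.40 to 0.04, limma adjusted p = 0.137), which the pseudocount of 1 makes small for a gene at this level. It was -0.30 with limma voom on the 148 to 205 recovered reads (limma adjusted p = 0.0625), and it passed in 1 of 18 other settings, without a variance trend (limma adjusted p = 0.0482).

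Fos (ENSMUSG00000021250, chromosome 12, 85473890 to 85477273, plus strand), the prototype immediate early gene, was detected in every library at a low level. It had 1.35, 0.555 and 0.911 FPKM in knockdown and 1.09, 0.548 and 0.622 FPKM in control. The groups overlapped. Its mean of 0.845 FPKM over the 6 libraries kept it out of the test. With no filter on low values the log2 difference was 0.14 (limma adjusted p = 0.641), and the exact two-sided permutation p was 0.6. These levels rest on 49, 20 and 32 reads in knockdown and 41, 20 and 24 reads in control. The exact Poisson 95% intervals, which cover counting error only, were 36.3 to 64.8 for the 49 reads of knockdown library 1 and 12.2 to 30.9 for the 20 reads of knockdown library 2, so these replicates did not share an interval.

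The share of Junb among the AP-1 transcripts was lower in knockdown and that of Jun higher, while the sum of all 7 overlapped between the groups. The summed FPKM of the 4 FOS and 3 JUN genes was 216.1, 247.3 and 232.6 in knockdown and 258.8, 242.9 and 218.7 in control. Junb made up 27.5%, 28.9% and 29.4% of that sum in knockdown and 36.5%, 34.1% and 33.6% in control. Jun made up 9.70%, 8.82% and 9.11% in knockdown and 7.09%, 7.26% and 8.51% in control. For both genes the groups did not overlap, in opposite directions. The ratio of Jun to Junb FPKM, which no scaling between libraries can change, was 0.353, 0.306 and 0.310 in knockdown and 0.194, 0.213 and 0.253 in control. Jund made up 28.0% ± 2.41 in knockdown and 25.1% ± 0.740 in control, without overlap, and Fosl1 28.6% ± 1.93 and 27.0% ± 1.55 (SD, n = 3 each). Fosb made up 0.700% ± 0.0554 in knockdown and 0.820% ± 0.0297 in control. Shares of a sum depend on each other, so no test is given. They concern transcripts and not proteins.

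**Figure D4:**
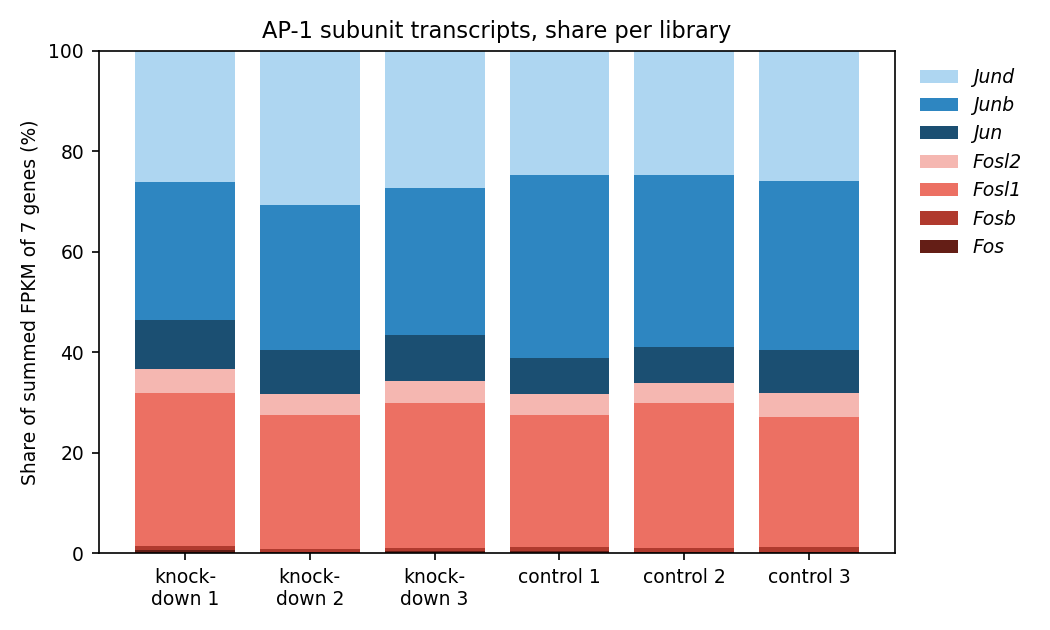
Share of the summed FPKM of the 4 FOS genes (reds) and 3 JUN genes (blues) in each library, knockdown libraries left and control libraries right. The Junb band takes 27.5% to 29.4% in knockdown and 33.6% to 36.5% in control; Fos and Fosb are the thin bands at the base.

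Other immediate early genes changed in both directions. The list of further transcription factors of this class had 17 tested genes, of which 9 were lower, 4 were higher and 4 were not called. This is a share of 76.5% called, against 62.4% of all genes tested. The median log2 change was -0.29, against 0.03 over all genes tested. Klf4, a Kruppel-like factor, fell to 29.9 ± 1.85 FPKM in knockdown, against 77.2 ± 7.35 FPKM in control (limma adjusted p = 1.16e-05). Arid5a, which encodes an RNA-binding factor, fell to 2.59 ± 0.0481 FPKM, against 9.34 ± 0.931 FPKM in control, while Id1, an inhibitor of helix-loop-helix factors, rose to 156.3 ± 20.3 FPKM, against 49.8 ± 4.49 FPKM in control (SD, n = 3 each). Of 16 tested immediate early genes that do not encode transcription factors, 4 were higher, 4 lower and 8 did not pass (median -0.05). Ctgf, a matricellular growth factor gene, rose to 39.4 ± 3.38 FPKM in knockdown, against 8.25 ± 1.83 FPKM in control. Within the IER group, Ier5 fell to 31.8 ± 1.26 FPKM, against 65.8 ± 3.40 FPKM in control, and the related Ier5l rose to 5.79 ± 0.865 FPKM, against 0.753 ± 0.16 FPKM in control. Ier5l averaged below 1 FPKM in control and entered the test only through its knockdown libraries.

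Dimer partners of FOS and JUN outside the members were lower for 4 of 6 tested, higher for 1 and not past the threshold for 1 (median -0.33). The share called was 83.3%, against 62.4% of all genes tested. Atf4, whose protein pairs with FOS and JUN proteins as well as with C/EBP factors, fell to 264.3 ± 7.57 FPKM in knockdown, against 455.4 ± 25.8 FPKM in control. Mafg, a small MAF gene, fell to 26.0 ± 0.460 FPKM, against 36.7 ± 1.61 FPKM in control. Batf2, which pairs with JUN proteins and is known as an interferon-induced gene, rose to 2.84 ± 0.182 FPKM, against 0.864 ± 0.191 FPKM in control (SD, n = 3 each). With a control mean below 1 FPKM, Batf2 entered the test only through its knockdown libraries.

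Genes upstream of the members also went both ways. Of 11 tested genes for serum response factor, its partners and the CREB group, 5 were higher, 3 lower and 3 did not pass (median 0.18). A share of 72.7% was called, against 62.4% of all genes tested. Srf, which encodes serum response factor, an activator of Fos, Egr1 and Ier2, rose to 33.1 ± 3.09 FPKM in knockdown, against 19.3 ± 1.12 FPKM in control. Its coactivator gene Mkl1 rose to 15.2 ± 1.16 FPKM, against 8.65 ± 0.771 FPKM in control, and Crtc1, a CREB coactivator gene, to 5.58 ± 0.201 FPKM, against 2.79 ± 0.371 FPKM in control (SD, n = 3 each). For the ERK cascade and its RSK kinases, 6 of 15 were higher, 6 lower and 3 did not pass (median 0.03), so 80.0% were called. The RSK genes were split, with Rps6ka1 at 4.61 ± 0.265 FPKM in knockdown and 1.25 ± 0.206 FPKM in control, and Rps6ka3 at 8.01 ± 0.588 and 15.7 ± 1.69 FPKM, both past the threshold. Mapk7, the gene of ERK5, rose to 11.6 ± 0.809 FPKM, against 6.70 ± 0.199 FPKM in control.

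For the JNK and p38 cascades, 9 of 17 tested genes were higher, 3 lower and 5 did not pass (median 0.25). Of this list 70.6% was called, against 62.4% of all genes tested. Map2k3, a kinase gene upstream of p38, rose to 57.8 ± 2.99 FPKM in knockdown, against 35.8 ± 1.91 FPKM in control. Map2k6, of the same step, rose to 2.39 ± 0.663 FPKM, against 0.361 ± 0.138 FPKM in control, and the JNK scaffold gene Mapk8ip1 to 1.97 ± 0.346 FPKM, against 0.259 ± 0.0715 FPKM in control (SD, n = 3 each). Map2k6 and Mapk8ip1 averaged below 1 FPKM in control, so both entered the test only through their knockdown libraries. RNA levels do not measure the activity of these kinases.

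Among 13 genes for proteins that bind or decay mRNAs with AU-rich elements, which many immediate early mRNAs carry, 4 were higher, 4 lower and 5 did not pass (median 0.12). These calls make 61.5% of the list, near the 62.4% of all genes tested. The 3 with the smallest p encode deadenylase subunits and all fell: Cnot7 to 5.75 ± 0.319 FPKM in knockdown, against 8.95 ± 0.183 FPKM in control, Pan2 to 4.59 ± 0.0843 FPKM, against 7.38 ± 0.713 FPKM in control, and Pan3 to 3.30 ± 0.368 FPKM, against 5.43 ± 0.264 FPKM in control. The fourth lower gene was Cnot6 (log2 change -0.39), while Cnot1 (0.01) and Cnot8 (0.12) did not pass. The 4 higher genes were Zfp36l1 (log2 change 0.41), Khsrp (0.3), Auh (0.3) and Hnrnpd (0.29), so the list did not fall as a whole. These 7 were named after their values were seen. Of 8 tested genes on a list drawn up for turnover of JUN, 3 were higher, 2 lower and 3 did not pass (median -0.01). At 62.5%, the share called was also near that of all genes tested. One of the 2 lower genes, Bach1 (log2 change -0.31, limma adjusted p = 0.0214; named after its value was seen), encodes a transcription factor that pairs with small MAF proteins and is not a turnover gene. Fbxw7, which encodes a ubiquitin ligase subunit that recognises phosphorylated JUN, fell to 2.05 ± 0.189 FPKM in knockdown, against 3.26 ± 0.17 FPKM in control. Ddb1, an adaptor gene of the CUL4 ligase, rose to 247.3 ± 18.2 FPKM, against 159.1 ± 2.20 FPKM in control, and Trib2, a scaffold gene better known for turnover of C/EBP alpha, to 5.50 ± 0.300 FPKM, against 2.96 ± 0.296 FPKM in control (SD, n = 3 each).

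Of 16 tested genes known as AP-1 targets in other cells, 3 were higher, 8 lower and 5 did not pass, a share of 68.8% called, against 62.4% of all tested genes. Their median log2 change was -0.11. Areg, an EGF receptor ligand gene, fell to 3.08 ± 0.595 FPKM in knockdown, against 14.8 ± 3.94 FPKM in control. Vegfa, the angiogenic growth factor gene, fell to 30.1 ± 2.52 FPKM, against 88.3 ± 5.75 FPKM in control. Ccl2, a chemokine gene, went the other way and rose to 12.6 ± 1.83 FPKM, against 1.44 ± 0.232 FPKM in control (SD, n = 3 each). Each of these genes has other known regulators, and the list also holds Spp1, which is on the duct marker list above.

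**Figure D5:**
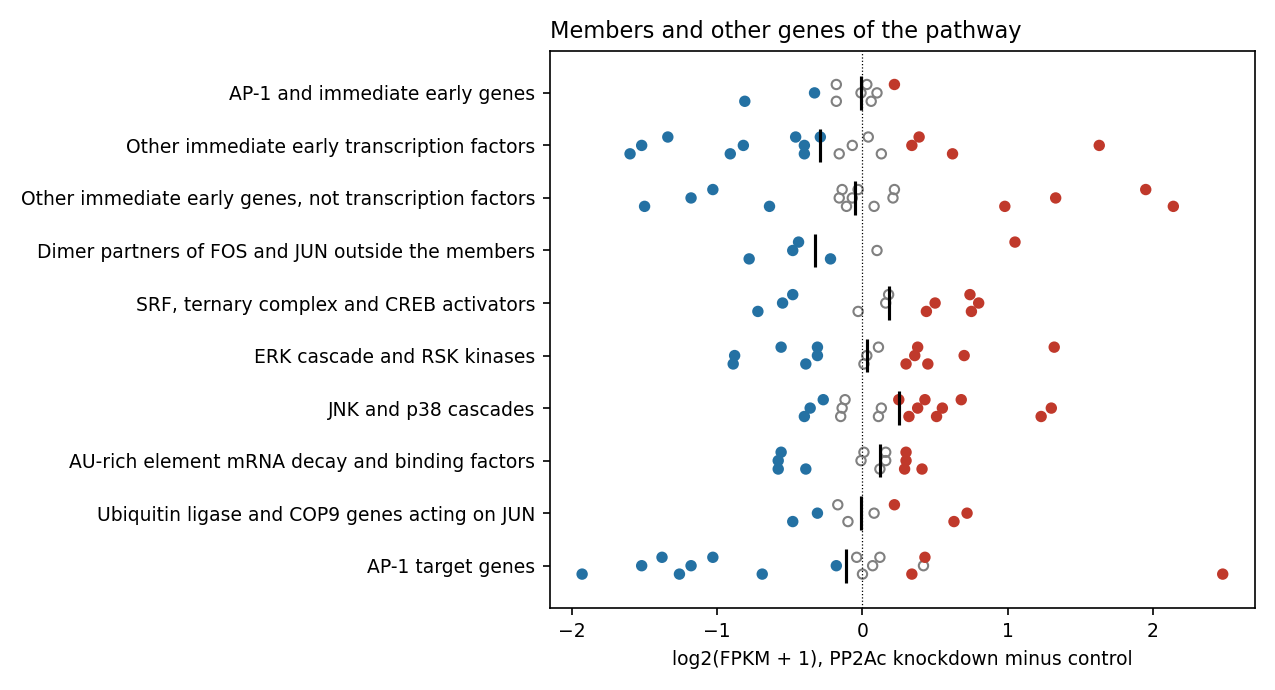
Log2 change (PP2Ac knockdown minus control, log2(FPKM + 1)) of every tested gene of the members and of 9 other lists of the pathway; filled points passed a limma adjusted p of 0.05 (red higher, blue lower), open points did not, and black bars are list medians. The members lie between -0.81 and 0.22, while the other lists reach from -1.93 (Areg) to 2.48 (Ccl2).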

How the data were processed

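RNA was sequenced from 3 PP2Ac knockdown and 3 control libraries; per the labels' protocols RNA came from a Trizol extraction and an Illumina TruSeq kit served for the libraries. The authors deposited FPKM per gene and library. Genome builds GRCm38 and mm10 are named per the submitters' processing notes; for the aligner, the counter and strandedness, nothing was stated in what was used. In each library 100.0% of the non-zero products of FPKM and gene length were whole multiples of a fixed unit (within 0.01), which gave reads; median-of-ratios size factors over the 15867 genes with a value in every library were equal (1.00714), so the deposited values were already level on that scale. Log2(FPKM + 1) of genes averaging 1 FPKM or more was tested with limma 3.58.1 (R 4.3.3; lmFit, eBayes with trend) over the whole table, with Benjamini-Hochberg adjustment at 0.05; differences are knockdown minus control. Exact permutation tests and tables used Python 3.11.15, pandas 2.3.3, numpy 2.4.6 and scipy 1.17.1, and figures matplotlib 3.10.9. Replicates differed beyond sampling noise (chi-square per degree of freedom 6.58 to 10.0). Members and lists were chosen with earlier results of these data known. All members are named, with up to 3 genes per other list by smallest p among those past the threshold and the 3 genes most like the member that changed most; Rfwd2 on 1 list was not matched, and single values of some marker genes are not reported here. On data simulated for this comparison (11783 genes), limma found 56.7% of 67 genes set to a 1.5-fold change, 91.0% of 67 set to 2-fold and 100.0% of 65 set to 4-fold. Of 179 calls, 15 were false. The simulation changed few genes and used a fixed spread between replicates, not one estimated from the data. In the data 62.4% of tested genes passed, so the simulated rates need not hold there.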

Additional observations from a re-analysis of the deposited data

How the results depend on the processing

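The counts of calls and the log2 changes of the members, Ppp2ca and the genes named by smallest p from the other lists were recomputed under 17 alternatives chosen at the outset and 2 chosen after seeing the data (median-of-ratios scaling over tested genes only, and limma voom for genes with a mean of at least 10 reads). Among the 17, median-of-ratios scaling over all genes used 1 factor for every library (1.00714) and so could not differ from the main fit beyond the pseudocount. Fos could be fitted in only 3 and Fosb in 18, and 9 of the genes from the other lists in 18. The Junb share was recomputed under 7; the ratio of Jun to Junb, the genes most like Ier3 and the promoter matches were not. Ier3 and Ppp2ca kept their direction and call in all 19. Of the 9 tested members, 1 to 4 passed (1 to 3 when a library was left out). Over all genes the count ran from 5182 of 7728 tested (mean FPKM of at least 5) to 8472 of 13493 (limma voom, mean of at least 10 reads). With no filter on low values it was 8123 of 26998. No member was higher with mitochondrial, rRNA and Gm23935 reads removed, where Jun (0.15) did not pass, Ier2 (-0.26) did, and Fosl1 (-0.04) and Egr1 (-0.008) changed sign; 1 was lower with no filter and with the replicate block, where Junb stayed at -0.33 but did not pass. Without a trend Fosb passed at -0.18. Fosl1 was -0.01 with median-of-ratios scaling over tested genes and Fosl2 0.008 with array weights; the cause was not tested. At a mean FPKM of at least 5, with 7728 genes tested, 2208 genes were lower and 3 genes of the JUN turnover list passed; every other list count stayed within 1.5 times under each setting. Leaving out each library gave 0 to 1 members higher, 1 to 2 lower, and log2 changes of 0.20 to 0.23 for Jun, -0.41 to -0.23 for Junb, -0.06 to 0.09 for Fosl1, -0.05 to 0.02 for Fosl2, -0.009 to 0.20 for Jund and -0.01 to 0.16 for Egr1. Deviations of same-numbered libraries had correlations across genes of -0.0107, 0.159 and 0.0518, and those of differently numbered libraries ran from -0.177 to 0.133. With 3 libraries per group these values cannot decide whether equal numbers mark a pairing. The replicate block changed no member's call but that of Junb (limma adjusted p = 0.0591) and called 7363 genes in all. No setting moved the median of all genes by over 0.1 on the log2 scale. It went from 0.03 in the main fit to -0.04 with mitochondrial, rRNA and Gm23935 reads removed, the setting where Jun fell to 0.15. Fos rests on 20 to 49 reads per library. Its replicates also spread beyond counting error (chi-square p = 0.00232 in knockdown and 0.0138 in control).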
